A study of Mus musculus with 4 samples.

Results

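The 37 genes described here encode the heat shock factors and the heat shock chaperones of the cytosol and the mitochondria. They were chosen by function, and their probes were found through the RefSeq accession of each probe. Of the 37 genes, 36 had at least 1 probe, among 19747 named genes on the array, and together they had 50 probes. Hspa1b had no probe of its own accession, and the Hspa1a probe may also take up RNA of this near-identical copy. The members fall into 6 groups, namely 2 heat shock factors, 9 heat-inducible chaperones, 10 constitutive chaperones of the cytosol, 5 co-chaperones, 4 mitochondrial chaperones and 7 subunits of the chaperonin CCT.

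C2C12 cells are a mouse myoblast line grown from satellite cells of the thigh. Proliferating cultures were exposed to palmitate, a saturated fatty acid, at 0.1 mmol/l for 48 h, and control cultures received the same amounts of the carriers, ethanol and fatty-acid-free albumin. Each of 4 two-colour arrays held RNA of 1 palmitate culture (Cy5) and 1 control culture (Cy3), labelled as 4 biological replicates of this line. The source label of the control channel names another serum (HS) than the treatment protocol does (FBS). If that holds for the control cultures alone, palmitate and serum cannot be told apart. The dye orientation was the same on all arrays, so palmitate and dye cannot be told apart.

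Heat shock chaperones bind proteins that are not folded and either hold them or help them fold. Hsp70 works in cycles of ATP hydrolysis that J-domain proteins start and nucleotide exchange factors reset, Hsp90 acts on late folding steps of kinases and receptors, and CCT is a barrel of stacked rings that encloses actin and tubulin. When unfolded proteins draw chaperones away from HSF1, this factor binds heat shock elements, repeats of GAA and TTC triplets, and transcribes the inducible genes. Muscle is known for its small heat shock proteins, which guard the filaments of the sarcomere.

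All 36 measured members were well above background in every culture on all 4 arrays, and none of their spots was saturated. Over all gene probes, 24169 of 39429 (61.3%) were tested, with 61.9 to 70.7% well above background in palmitate cultures and 57.6 to 64.0% in control cultures. Replicate 1 stood apart. Its log2 ratios correlated at -0.075 with the mean of the other replicates across probes, whereas replicates 2 to 4 correlated at 0.677 to 0.772 with one another (probes are not independent). Of 7 myoblast markers, 6 were well above background in every culture, Myod1 and Des among them. Of 5 adipocyte markers, 4 were above background in none, and of the macrophage and endothelial markers Lyz2, Cdh5 and Tek were above background in none, whereas Csf1r, Pecam1 and Kdr were in every culture. The medians of the marker lists on single arrays ranged from 0.03 to 0.15 for myoblast and from 0.10 to 0.28 for differentiated muscle markers. For the 2 tested endothelial markers they were 0.61 on replicate 1 and -0.91 to -0.50 on the others, and for the 2 tested macrophage markers 0.12 on replicate 1 and -0.23 to -0.14 on the others. The part of these markers in the results below was not tested.

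The letters of the heat shock element were searched in RefSeq promoter windows of 300 bases (GRCm38.p6), which were at hand for 29 of the 37 members. The form with 2 triplets (GAANNTTC or TTCNNGAA, both strands) was found in 15 of these 29 members (51.7%), against 17% of all 27025 genes. The form with 3 triplets (GAANNTTCNNGAA or TTCNNGAANNTTC), which contains the shorter one, was found in Hspd1, Hspe1, Hsph1 and Dnajb6 (13.8%), against 0.662% of all genes. With at most 1 mismatch it was found in 13 members (44.8%) and in 8.15% of all genes. By group, the form with 2 triplets stood in 6 of 7 heat-inducible members, 3 of 7 constitutive members, 2 of 5 co-chaperones, 2 of 3 mitochondrial members and 2 of 6 CCT subunits. TATAAA was found in 1 member (3.45%), against 15.7% of genes, and CCAAT in 13 members (44.8%), against 41.1%. A match is a description of the letters and not of a bound site.

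Stretches around some of these matches are shown because the array results of the same genes are described in detail, and the element is in capitals. Hspe1 (chr1:55088038-55088097, plus strand) and Hspd1 (the same bases, minus strand) start from 1 shared promoter in opposite directions, and their windows share 285 identical bases. The others are Hspa1a (chr17:34972227-34972286, minus strand), Dnajb6 (chr5:29735828-29735887, plus strand), Hspb1 (chr5:135887776-135887835, plus strand), Dnaja1 (chr4:40722318-40722377, plus strand) and Cct2 (chr10:117063384-117063443, minus strand).
Hspe1: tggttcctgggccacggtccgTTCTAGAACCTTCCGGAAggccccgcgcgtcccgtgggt
Hspd1: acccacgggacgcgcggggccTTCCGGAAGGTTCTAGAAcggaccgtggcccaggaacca
Hspa1a: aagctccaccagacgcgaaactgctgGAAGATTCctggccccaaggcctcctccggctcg
Dnajb6: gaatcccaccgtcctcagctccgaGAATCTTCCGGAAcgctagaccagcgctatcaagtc
Hspb1: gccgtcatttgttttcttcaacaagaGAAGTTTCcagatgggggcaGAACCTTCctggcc
Dnaja1: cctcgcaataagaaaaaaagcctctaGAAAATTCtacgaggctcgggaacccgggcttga
Cct2: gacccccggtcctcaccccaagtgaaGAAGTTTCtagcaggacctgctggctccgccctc
The shared element of Hspe1 and Hspd1 is a run of 4 triplets in turn, 89 to 72 bases before the start of Hspe1 and 144 to 127 bases before that of Hspd1. The Hspa1a and Hspa1b windows were identical at 296 of 300 bases (98.7%), the stretch shown being the same in both. No window was at hand for Hsf1, Hspa8, Hspa9, Hsp90aa1, Hsp90ab1, Cryab, Hspb2 and Cct4.

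In palmitate cultures, as against control cultures, the chaperones lay on both sides of 0. In RNA of whole cultures, fewer cells of a type and less RNA per cell cannot be told apart. The largest positive mean log2 ratios belonged to the CCT subunit Cct4, the J-domain protein Dnajb4 and the constitutive Hsp90 gene Hsp90ab1. The largest negative ones belonged to the mitochondrial co-chaperonin Hspe1, the small heat shock protein Cryab and the factor Hsf1. With limma and Benjamini-Hochberg adjustment over all tested probes, with a limit of 0.05 on that p together with a 1.6-fold limit, no member passed in either direction, and neither did any other probe on the array (0%). Taking p before adjustment, 12 members were under 0.05 and higher in palmitate cultures and 7 under 0.05 and lower, where 10.8% of all tested genes were higher and 13.4% lower. The same count over all probes was 21.9% in either direction. With the arrays centred on the median in place of loess, 6 members were higher and 0 lower at that p. The median of all tested probes was 0.19 in that fit, so this count carries a shift of all probes. The share of all genes was not counted there. Members with a positive log2 ratio on 4 of 4 arrays numbered 11 (15.6% of all genes), and those with a negative one 7 (16.8%). The mean was above 0 for 22 members and below 0 for 14, and the median over the 36 was 0.08, beside 0.00 over all tested genes. When loess was replaced by median centring, a 75th percentile shift or no dye normalization, called the scalings without loess below, this median was 0.28 relative to all probes. These scalings differ only by a constant on each array. Relative to all probes, their mean log2 ratios therefore coincide by construction, up to rounding. Log2 ratios under these scalings are given relative to the median of all probes throughout. Counts of members or genes under them are not, and carry the shift of all probes.

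Without replicate 1, 11 members were higher and 3 lower at an adjusted p of 0.05 in limma, where 8.73% of all genes were higher and 9.85% lower. With the 1.6-fold limit as well, 4 of these rose (Hsp90ab1, Dnajb4, Cct4 and Cct8; 2.01% of all genes) and 2 fell (Cryab and Hspe1; 2.85%). Without replicate 2, 3 or 4 no member passed, and their adjusted p was 0.308 at the lowest. Each replicate was left out in turn, and the fit without replicate 1 is described because that array stood apart in these same log2 ratios. The p-values without replicate 1, here and below, thus follow a choice made on the data and are descriptions only. The plot of all members by array shows means of both signs within each group except the heat shock factors, whose means are both below 0.

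**Figure D1:**
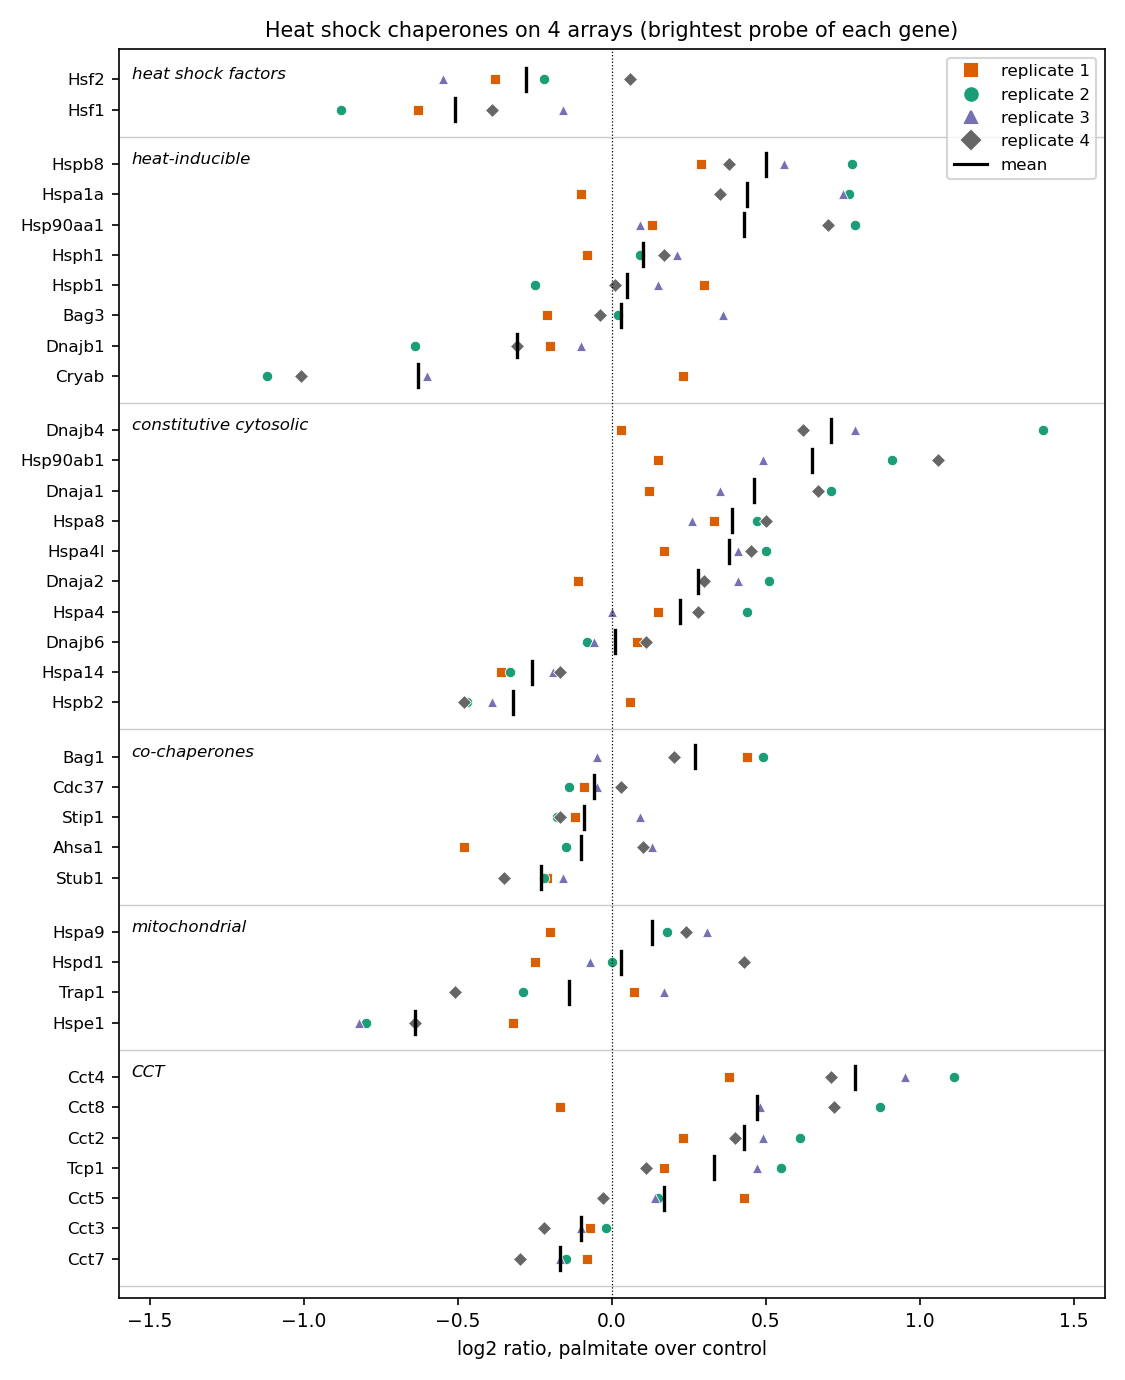
Palmitate-over-control log2 ratio (x axis) on each of 4 arrays for the brightest probe of the 36 measured members (y axis, by group), with symbols for the replicates and a bar for the mean. Cct4 lies right of 0 and Hspe1 left of 0 on all 4 arrays, while Hspd1 spreads around 0 from -0.25 to 0.43.

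Medians by group ran from -0.39 for the heat shock factors to 0.33 for both the constitutive chaperones and CCT. The medians of these 3 groups had the same sign after loess, with the processed signals and, relative to all probes, in the coinciding scalings without loess. They kept it when any 1 replicate was left out. The heat-inducible genes had a median of 0.08, which was 0.29 in the scalings without loess, where the constitutive group and CCT had 0.46 and 0.47. The co-chaperones (-0.09) and the mitochondrial members (-0.06) were above 0 in the scalings without loess (0.09 and 0.12). For CCT the array medians were 0.17, 0.55, 0.47 and 0.11 on replicates 1 to 4, and for the constitutive group 0.10, 0.49, 0.30 and 0.38. All 8 values lay above 0, as did the heat-inducible medians (0.03 to 0.18), beside -0.02 to 0.02 for all tested genes. In the plot of medians the ranges of these 3 groups over the arrays overlap. Within each array the heat-inducible median (0.03, 0.06, 0.18 and 0.09 on replicates 1 to 4) was below those of CCT and the constitutive group. The difference between groups was not tested.

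**Figure D2:**
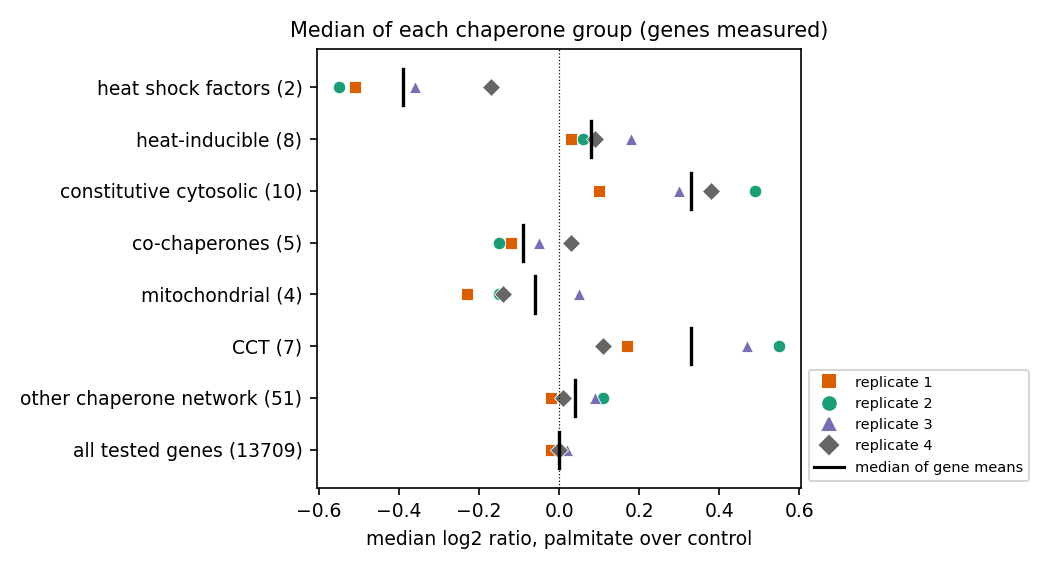
Medians of the palmitate-over-control log2 ratio (x axis) for each chaperone group, for the other chaperone network and for all tested genes (y axis, number of genes in brackets), with symbols for the 4 arrays and a bar for the median of the gene means. CCT and the constitutive group lie right of 0 on every array and the heat shock factors left of 0, while all tested genes lie between -0.02 and 0.02.

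The heat shock factors come first among the members, since they control the inducible genes. Hsf1, the main activator of the heat shock response, had log2 ratios of -0.63, -0.88, -0.16 and -0.39 on replicates 1 to 4, with a mean of -0.51 ± 0.31 (SD, n = 4; adjusted p = 0.128 from limma). Its log2 signal was 11.85, 11.50, 12.29 and 12.05 in palmitate cultures and 12.47, 12.38, 12.45 and 12.45 in control cultures. All palmitate values lay below all control values, and the control values spanned less than the palmitate values did. Hsf2, a factor with roles in development that can pair with HSF1, had -0.38, -0.22, -0.55 and 0.06 (mean -0.28 ± 0.26, adjusted p = 0.232, and -0.17 in the scalings without loess). It was below 0 on 3 of 4 arrays, and its signals in the cultures overlapped.

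Among the 8 measured heat-inducible members, p before adjustment was under 0.05 for 3 that were higher and 2 that were lower, beside 10.8% and 13.4% of all genes. With median centring no member of any group was lower at that p, in the fit where all probes were shifted upward as said above. Hspa1a, the stress-inducible Hsp70, had log2 ratios of -0.10, 0.77, 0.75 and 0.35 (mean 0.44 ± 0.41, adjusted p = 0.19). Hsp90aa1, the inducible Hsp90, had 0.13, 0.79, 0.09 and 0.70 (0.43 ± 0.37, adjusted p = 0.178, and 0.68 in the scalings without loess), and Hspb8, a small heat shock protein that works with Bag3 in the removal of damaged filament proteins, had 0.29, 0.78, 0.56 and 0.38 (0.50 ± 0.22, adjusted p = 0.118). Hsp90aa1 and Hspb8 were above 0 on all arrays with no overlap of the cultures' signals, and Hspa1a was above 0 except on replicate 1. Without replicate 1, Hspa1a had a mean of 0.62 (adjusted p = 0.0149) and Hspb8 of 0.58 (adjusted p = 0.0156), both under the fold of 1.6, and Hsp90aa1 had 0.52 (adjusted p = 0.0505).

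The other heat-inducible members had smaller or negative means. Bag3, the exchange factor that partners Hspb8, had log2 ratios of -0.21, 0.02, 0.36 and -0.04, and Hsph1, an Hsp110 exchange factor, had -0.08, 0.09, 0.21 and 0.17. Hspb1, the small heat shock protein Hsp27 or Hsp25, had 0.30, -0.25, 0.15 and 0.01. None of these 3 had a mean over 0.10 in size after loess, but in the scalings without loess Hspb1 had 0.34, Hsph1 0.24 and Bag3 0.15. In the other direction, Hspb1 (-0.04 with the processed signals, -0.03 without replicate 1) and Bag3 (-0.07 without replicate 3) did not keep their sign. Dnajb1, the J-domain partner of the inducible Hsp70, had -0.20, -0.64, -0.10 and -0.31 (mean -0.31 ± 0.24, adjusted p = 0.181, and -0.13 in the scalings without loess). It was below 0 on all arrays, in contrast to Hspa1a, and its palmitate signals lay below all its control signals.

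Cryab, the small heat shock protein αB-crystallin, which binds desmin and titin, had log2 ratios of 0.23, -1.12, -0.60 and -1.01 (mean -0.63 ± 0.61, adjusted p = 0.186). Its log2 signal was 14.26, 13.13, 13.38 and 13.07 in palmitate cultures and 14.03, 14.26, 13.98 and 14.08 in control cultures. Replicate 1 alone went the other way, and without it Cryab fell by 0.91 on the log2 scale (adjusted p = 0.0065). A second probe had a mean of -0.46 ± 0.38, with the same split between replicate 1 and the rest. Hspb2, another small heat shock protein of muscle, which lies beside Cryab in the genome, had 0.06, -0.47, -0.39 and -0.48 (mean -0.32 ± 0.25, adjusted p = 0.185). This mean was -0.45 without replicate 1 (adjusted p = 0.0178) and -0.20 in the scalings without loess. Both genes were thus below 0 on replicates 2 to 4 and above 0 on replicate 1.

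Before adjustment, p was under 0.05 for 7 of the 10 constitutive members, of which 5 were higher and 2 lower, beside 10.8% and 13.4% of all genes. Hsp90ab1, the constitutive Hsp90, had log2 ratios of 0.15, 0.91, 0.49 and 1.06 (mean 0.65 ± 0.41, a fold of 1.57, adjusted p = 0.125). Its log2 signal was 17.58, 18.04, 17.68 and 18.01 in palmitate cultures, against 17.43, 17.13, 17.19 and 16.94 in control cultures. The cultures did not overlap, and without replicate 1 Hsp90ab1 rose by 0.82 (adjusted p = 0.0095). On each array Hsp90ab1 lay above Hsp90aa1, by 0.23 ± 0.19 on average in log2 ratio, a pair chosen after its values were seen and not tested.

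Hspa8, the constitutive Hsp70, had 0.33, 0.47, 0.26 and 0.50 (mean 0.39 ± 0.11, adjusted p = 0.118). This mean was 0.25 with the processed signals and 0.69 in the scalings without loess. Its log2 signal was 17.65, 17.64, 17.56 and 17.57 in palmitate cultures, against 17.32, 17.16, 17.30 and 17.07 in control cultures. No palmitate value of this probe reached down to a control value. Of the other Hspa8 probes, not named by rule, a second had a mean of 0.47 ± 0.27, also without overlap. The third had 0.27 ± 0.34, with overlap. The J-domain proteins Dnaja1 and Dnajb4, which start the Hsp70 cycle, lay on the same side of 0. Dnaja1 had 0.12, 0.71, 0.35 and 0.67 (0.46 ± 0.28, adjusted p = 0.131), with no overlap of the cultures, and 0.69 in the scalings without loess. Its other probe had 0.01, 0.43, -0.01 and 0.06 (0.12 ± 0.21, adjusted p = 0.515), with overlap, and the median over both was 0.29. Dnajb4 had 0.03, 1.4, 0.79 and 0.62 (0.71 ± 0.56, a fold of 1.64, adjusted p = 0.143), its replicate 1 near 0, and it rose by 0.94 without that replicate (adjusted p = 0.0115). Across the arrays, Dnaja1 exceeded Dnajb1 by 0.77 ± 0.48, on 4 of 4 arrays, another pair chosen after its values were seen.

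Hspa4l, an Hsp110 exchange factor, had 0.17, 0.50, 0.41 and 0.45 (0.38 ± 0.15, adjusted p = 0.123), above 0 on every array. Hspa14, an Hsp70 that sits with a J-domain partner on the ribosome, had -0.36, -0.33, -0.19 and -0.17 (-0.26 ± 0.10, adjusted p = 0.15), below 0 on every array, with a mean of -0.10 to -0.09 in the scalings without loess. Without replicate 1, Hspa4l had 0.45 (adjusted p = 0.0171), Hspa8 0.41 (adjusted p = 0.0292), Dnaja1 0.58 (adjusted p = 0.015) and Dnaja2, a further J-domain protein, 0.41 (adjusted p = 0.0272), all short of the fold of 1.6. Dnajb6, a J-domain protein that keeps aggregation-prone proteins soluble, had a mean of 0.01 ± 0.10 and did not keep its sign without replicate 1 or 4.

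**Figure D3:**
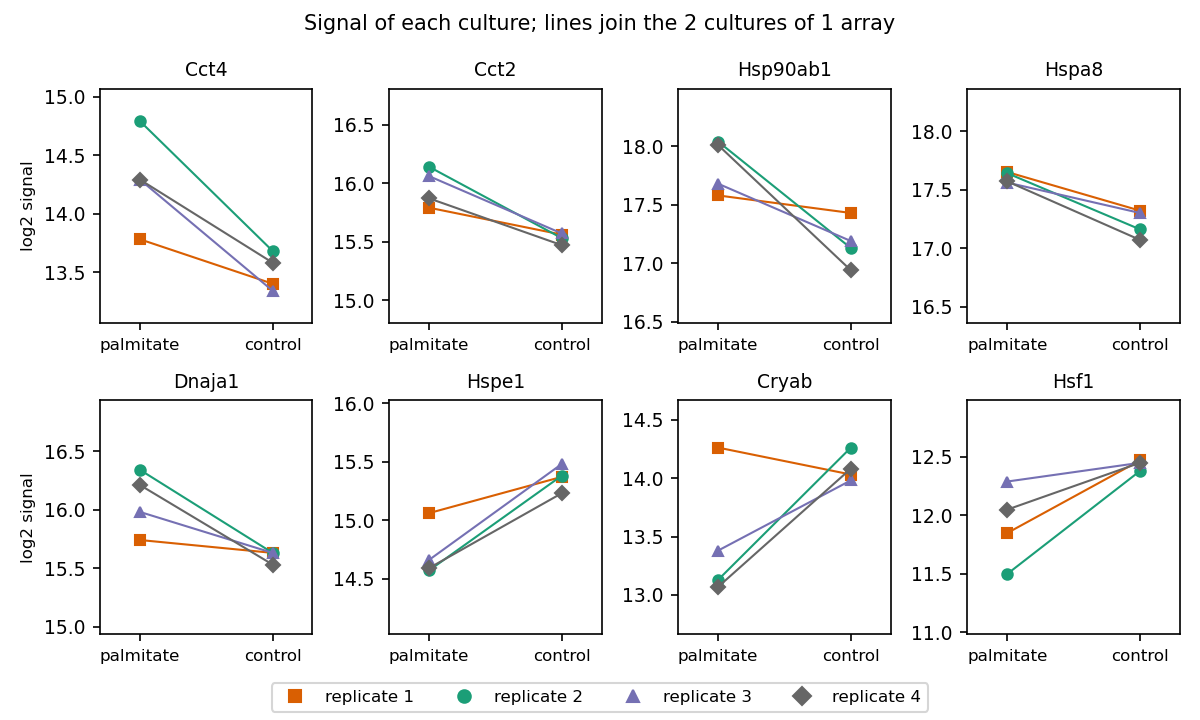
Log2 signal after normalization (y axis, 2 log2 units in each panel) of the palmitate culture (left) and the control culture (right) of each array for 8 members, with a line for each of the 4 arrays. The palmitate points of Cct4, Cct2, Hsp90ab1, Hspa8 and Dnaja1 lie above all control points and those of Hspe1 and Hsf1 below, while Cryab crosses on replicate 1.

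In all, the 4 palmitate and 4 control signals of the brightest probe did not overlap for 10 of the 36 members, against 13.9% of all tested genes. These were Hsf1, Hsp90aa1, Dnajb1, Hspb8, Hspa8, Hsp90ab1, Dnaja1, Hspe1, Cct2 and Cct4. Levels are given within a gene only, because brightness depends on the probe.

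The 5 co-chaperones had means from -0.23 to 0.27. Stub1, the ubiquitin ligase CHIP that marks chaperone clients for degradation, had log2 ratios of -0.21, -0.22, -0.16 and -0.35 (-0.23 ± 0.08, adjusted p = 0.169, and -0.10 in the scalings without loess) and was the co-chaperone with an unadjusted p under 0.05. Bag1, an exchange factor, had a mean of 0.27 ± 0.25 (0.50 in the scalings without loess). Stip1, which bridges Hsp70 and Hsp90, Ahsa1, which speeds the Hsp90 ATPase, and Cdc37, which brings kinases to Hsp90, had means of -0.09 ± 0.13, -0.10 ± 0.28 and -0.06 ± 0.07. The last 3 were above 0 relative to all probes in the scalings without loess (0.03, 0.09 and 0.14), so no direction can be given for them.

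The mitochondrial members differed from one another. Hspe1, the lid of the mitochondrial folding chamber (Hsp10), had log2 ratios of -0.32, -0.80, -0.82 and -0.64 (mean -0.64 ± 0.23, 1.56-fold lower in palmitate cultures, adjusted p = 0.118). Its log2 signal was 15.06, 14.57, 14.66 and 14.59 in palmitate cultures, against 15.37, 15.38, 15.48 and 15.23 in control cultures, with no overlap. Without replicate 1 it fell by 0.75 (adjusted p = 0.00518). Its other probes, shown although they did not differ by enough to be named by rule, had means of -0.59 ± 0.20 and -0.30 ± 0.11 and were below 0 on all arrays.

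Hspd1, which forms the chamber itself (Hsp60) and shares the promoter with the run of 4 triplets shown above, had -0.25, 0.00, -0.07 and 0.43 (mean 0.03 ± 0.29, adjusted p = 0.915). Its mean was -0.06 with the processed signals, -0.11 without replicate 4 and 0.25 in the scalings without loess. Hspe1 minus Hspd1 was -0.07, -0.81, -0.75 and -1.07 on the 4 arrays (mean -0.67 ± 0.43). It was below 0 on each array but by little on replicate 1, and this pair, chosen after its values were seen, was not tested. Hspa9, the mitochondrial Hsp70 that pulls proteins through the inner membrane, had -0.20, 0.18, 0.31 and 0.24 (0.13 ± 0.23, adjusted p = 0.499), and Trap1, the mitochondrial Hsp90, had 0.07, -0.29, 0.17 and -0.51 (-0.14 ± 0.31, adjusted p = 0.548). Neither kept to a single side of 0, and in the scalings without loess their means were 0.31 and -0.02.

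Of the 7 CCT subunits described here, 4 had a p under 0.05 before adjustment, and these 4 were higher in palmitate cultures, beside 10.8% of all genes. Cct6a, which completes the rings and is named for that, was among the further network genes and had -0.26, 0.76, 0.73 and 0.34 (0.39 ± 0.47, adjusted p = 0.262, and a mean of 0.61 with an adjusted p of 0.0152 without replicate 1). Cct4 had log2 ratios of 0.38, 1.11, 0.95 and 0.71 (mean 0.79 ± 0.32, a fold of 1.73, adjusted p = 0.118). Its log2 signal was 13.78, 14.79, 14.29 and 14.29 in palmitate cultures, against 13.40, 13.68, 13.34 and 13.58 in control cultures. The lowest palmitate value, that of replicate 1, lay just above the highest control value, and without replicate 1 Cct4 rose by 0.92 (adjusted p = 0.00452). Cct2 had 0.23, 0.61, 0.49 and 0.40 (0.43 ± 0.16, adjusted p = 0.118, and 0.66 in the scalings without loess), also without overlap, and Tcp1, the founding subunit, 0.17, 0.55, 0.47 and 0.11 (0.33 ± 0.22, adjusted p = 0.16). Cct8 had -0.17, 0.87, 0.48 and 0.72 (0.47 ± 0.46, adjusted p = 0.195), and without replicate 1, the array on which it was below 0, it rose by 0.69 (adjusted p = 0.00961).

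The remaining subunits did not share this position. Cct5 had 0.43, 0.15, 0.14 and -0.03 (0.17 ± 0.19, adjusted p = 0.349, and 0.41 in the scalings without loess), with replicate 1 the highest. Cct3 had -0.07, -0.02, -0.10 and -0.22 (-0.10 ± 0.09, adjusted p = 0.466) and Cct7 had -0.08, -0.15, -0.17 and -0.30 (-0.17 ± 0.09, adjusted p = 0.259), both below 0 on 4 of 4 arrays here, but at 0.04 and 0.03 relative to all probes in the scalings without loess. Cct4 exceeded Cct3 by 0.45, 1.13, 1.05 and 0.93 on the arrays (0.89 ± 0.30), a pair chosen after its values were seen. The 7 subunits thus spanned -0.17 to 0.79 in mean log2 ratio.

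Probes of the same gene were compared for the 9 members with more than 1 probe. The signs of the means agreed for 6 of them. For Hspa4, an Hsp110 exchange factor, the brightest probe had a mean of 0.22 ± 0.19, a second one -0.58 ± 0.36, below 0 on 4 of 4 arrays, and the third 0.40 ± 0.60, so that the probe means differed by 0.98 and no direction can be given for this gene. Dnaja2 had 0.28 ± 0.27 on its brightest and -0.07 ± 0.26 on its other probe, and the 4 probes of Dnajb6 ranged from -0.09 to 0.16. The sequences of the probes were not used here, so which transcripts each one reads is not known.

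**Figure D4:**
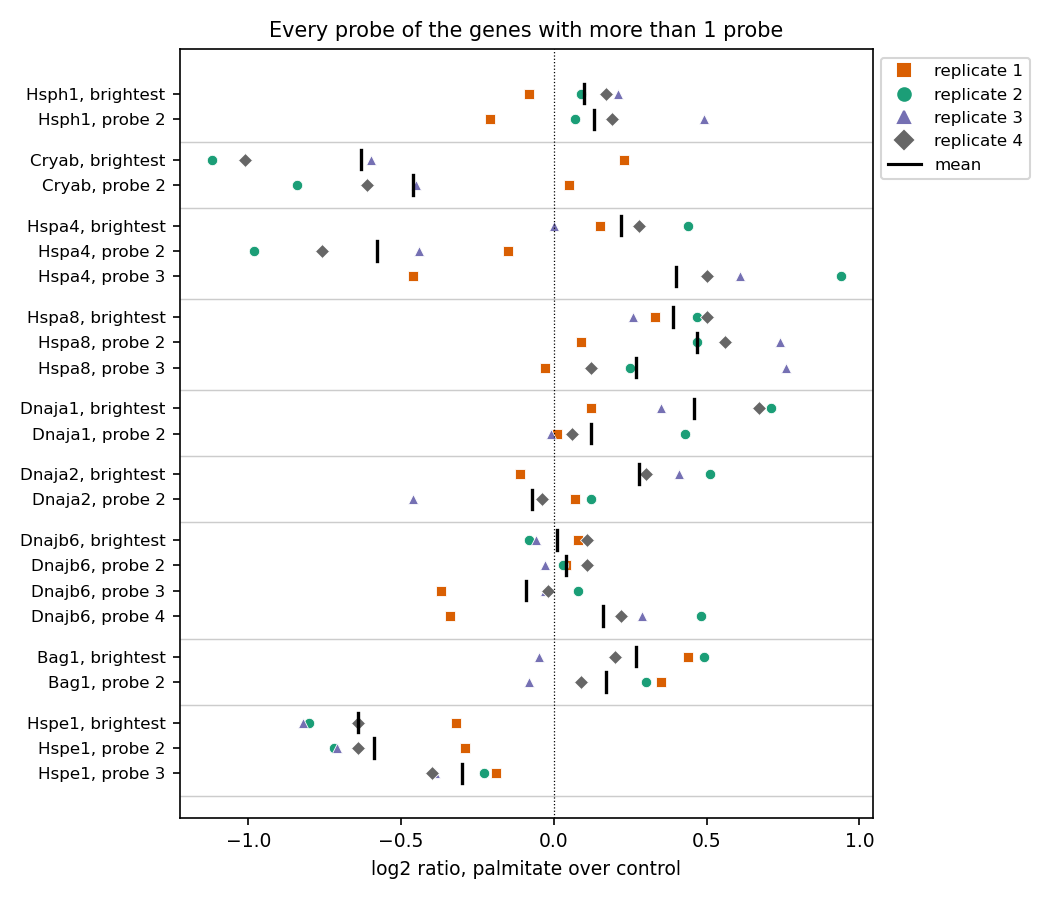
Palmitate-over-control log2 ratio (x axis) on each of 4 arrays for every probe of the 9 members with more than 1 probe (y axis, brightest probe first), with symbols for the replicates and a bar for the mean. The 3 probes of Hspe1 lie left of 0 on all arrays, while the 3 probes of Hspa4 lie on both sides.

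Of 58 further genes of the chaperone network, 51 were tested. Before adjustment, p was under 0.05 for 9 that were higher (10.8% of all genes) and 8 that were lower (13.4%), and the median was 0.04. With median centring these counts were 1 and 0, in the fit where all probes were shifted upward. Without replicate 1 the counts were 15 and 9. The share of all genes was not counted in either of these fits, so the percentages above do not apply to them. Prefoldin, which hands new actin and tubulin to CCT, had members on both sides. Vbp1 had a mean log2 ratio of 0.41 ± 0.28, whereas Pfdn6 had -0.35 ± 0.08 and Pfdn1 -0.74 ± 0.64. Chordc1, an Hsp90 partner, had 0.40 ± 0.25, and Ttc4, another Hsp90 and Hsp70 partner, had -0.41 ± 0.08. Of the genes beside Hspa9 in mitochondria, Dnajc19, a J-domain protein of the import motor, had -0.40 ± 0.16 and Hscb, the J-domain protein of iron-sulfur cluster assembly, -0.52 ± 0.39. Dnaja3, another mitochondrial J-domain protein, which is not named by rule, went the other way with 0.34 ± 0.24. Hspb6, a further small heat shock protein of muscle, had 0.08, -0.68, -0.83 and -0.68 (-0.53 ± 0.41), with replicate 1 apart as in Cryab and Hspb2. The same split was seen outside the small heat shock proteins, in Pfdn1 (0.21, -1.11, -0.91 and -1.15) and Hscb (0.03, -0.82, -0.53 and -0.77). All SD are over 4 arrays, and the means of the 3 reference genes lay between -0.02 and 0.74.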

How the data were processed

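RNA of 4 palmitate and 4 control cultures of C2C12 myoblasts was measured on 4 two-colour arrays of 44397 spots, all on 1 slide. Images were quantified by the authors with Agilent Feature Extraction 10.7.3.1. From these deposited files the median intensity of each spot and its local background was used, which carries no correction. The deposited processed intensity, already background-subtracted and dye-normalized by that software, served as an alternative. The deposited log10 ratio entered no fit. A value table, also deposited, gives a log2 ratio (palmitate over control), equal to that of the processed signals (median difference 1.78e-07).

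Background was corrected by normexp (offset 50) on the median signals, mean signals not being used here. The trend of the dye ratio with brightness was removed by loess within each array. A dye effect of a single probe would remain in its log2 ratio. Fits were made in R 4.3.3 with limma 3.58.1 and statmod 1.5.0. Spots with an outlier mark (175 to 290 per array) were left out, and replicate spots were averaged. A probe entered the test if every array had it well above background in the same channel, Cy5 or Cy3. The mean log2 ratio of each probe was set against 0 in limma, with p-values adjusted after Benjamini-Hochberg, each array being the pair of its 2 cultures. Signals of single cultures were made comparable by Aquantile. RefSeq accessions gave names to 26049 of 39429 probes, and a gene is shown by its brightest tested probe. The number of arrays limits the precision.

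The fit was tested on simulated data (24065 probes). It recovered 89% of 100 probes shifted by a log2 of 1 and 99% of 100 shifted by 2, and called 1 unshifted probe. These shares hold for the simulated data only. On the real arrays, replicate 1 correlated at -0.075 with the mean of the other replicates across probes. The shares therefore do not tell how many true shifts the fit of the real arrays would find. The members, groups and lists were chosen with earlier results of these data known. By rule, array values are given for the heat shock factors, heat-inducible, mitochondrial and CCT members and for other members with a p under 0.05 before adjustment or a fold of 1.4. Further network genes are the 8 with the smallest p, with Cct6a and Dnaja3 added. Other probes are named where their sign differs or their mean differs by over 0.5. The alternatives changed background correction, dye normalization, filters, pairing, test, source of values, choice of probe, variance model and replicates. Promoters came from RefSeq.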

Additional observations from a re-analysis of the deposited data

Results flagged for a closer look

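Of 42 values tested, 1 lay farther from the other replicates than Dixon's limit allows, and chance alone marks a small share of such values. This was the log2 ratio of Hspb2, the small heat shock protein beside Cryab, at 0.06 on replicate 1, where the other replicates lay between -0.48 and -0.39 (gap over range 0.842).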

How the results depend on the processing

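Over 17 alternatives, 27 of 36 members kept the sign of their mean log2 ratio in each. The alternatives of filter, pairing, test and variance model reuse the same log2 ratios, so they could not turn a sign. The value table repeats the processed signals, and the scalings without loess coincide relative to all probes. The count thus rests on fewer distinct alternatives. Members past the adjusted p of 0.05 and the fold of 1.6 numbered 33 higher without dye normalization, where 20322 of all probes were higher and 26 lower, and 0 to 4 higher and 0 to 2 lower with 1 replicate left out (all probes 0 to 554 and 0 to 754). All probes past the test numbered 13 higher with the processed signals or the value table, 2 higher with the variation limit, and 1 higher and 2 lower with the methods' t-test. With the pairing of cultures left out (no replicate block), 15 probes were higher and 11 lower, none of them a member's brightest probe.

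At an unadjusted p under 0.05, lower members numbered 4 with the processed signals or the table, 3 with the methods' t-test, 2 with the 75th percentile shift and 2 to 7 with 1 replicate left out (higher members 8 to 14). Median centring gave 6 higher and 0 lower, and no dye normalization 33 and 0. Counts in the scalings without loess, here and for the network genes, carry the shift of all probes given below. The share of all genes at this unadjusted p was not counted in any alternative. No count in this paragraph can therefore be read as an excess or a lack. The further network genes gave 1 higher and 0 lower with median centring, 46 and 0 without dye normalization, 2 and 5 with the 75th percentile shift, 4 higher with the t-test, 5 higher with trend and robust variance, and 2 to 15 higher and 4 to 9 lower with 1 replicate left out.

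Median centring, no dye normalization and the 75th percentile shift moved the median of all probes to 0.19, 0.99 and -0.11. Relative to it they coincide by construction, with medians of 0.28 for all members, 0.29 for heat-inducible, 0.09 for co-chaperone, 0.12 for mitochondrial and 0.18 for network genes. Means turned positive for Stip1 (0.03), Ahsa1 (0.09), Cdc37 (0.14), Cct3 (0.04) and Cct7 (0.03). Signs also turned for Hspb1 (-0.04 with the processed signals and the table, -0.03 to 0.15 with 1 replicate left out), Hspd1 (-0.06 with both, -0.11 to 0.12), Bag3 (-0.07 to 0.11), Ahsa1 (-0.18 to 0.03) and Dnajb6 (-0.02 to 0.04, -0.00 as the median over its probes). The cause was not tested.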
